A study of Mus musculus with 22 samples.

Results

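Mitochondrial ribosomal proteins are the nuclear-encoded protein subunits of the ribosome that works inside mitochondria. They were chosen here by name, as the protein-coding genes whose symbols begin with Mrpl (large subunit) or Mrps (small subunit) followed by a digit. The rule found 77 of the 15448 genes in the count table, 48 of the large and 29 of the small subunit. All 77 passed the filter on low counts and were tested among 14785 genes.

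The mitochondrial ribosome translates the few mRNAs made from mitochondrial DNA, all of which encode subunits of the respiratory chain and the ATP synthase. Its proteins are made in the cytosol and imported, and they assemble on ribosomal RNAs made inside the organelle. Some have counterparts in bacterial ribosomes and others are found in mitochondria alone. In liver, a tissue rich in mitochondria, this machinery serves oxidative metabolism.

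The livers came from male, wild-type CD2F1 mice, and polyA RNA was sequenced from 1 liver per mouse. In the C26-TDCA group (n = 8) mice carried C26 cells, a mouse colon carcinoma line that is widely used to induce cachexia, and were given taurodeoxycholic acid, a taurine-conjugated bile acid, at 10 mg/kg by intraperitoneal injection each day. Mice of the C26 group (n = 8) carried C26 cells without the bile acid. Mice of the CT group (n = 6) were injected without tumour cells and were labelled as vehicle. Age, the site of injection and the duration were not given in the sources used here. The libraries held 20.5 to 28.3 M counts in the C26-TDCA group, 17.5 to 28.1 M in the C26 group and 16.5 to 25.3 M in the CT group. Levels are given as CPM, the counts of a gene per 1000000 counts of its library, after TMM scaling, a scaling that sets the bulk of genes equal between libraries. At these depths, 3 counts stood for 0.10 to 0.18 CPM, and no member was at 0 in any group. The TMM factors were 0.89 to 1.01 in C26-TDCA livers, 0.88 to 0.98 in C26 livers and 1.15 to 1.20 in CT livers. These factors differed between CT and the tumour-bearing groups, so small shifts in level against CT depend on the scaling.

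In C26 livers more of these genes fell than rose, and some moved each way. Against CT, 34 of the 77 members were lower in C26 livers and 12 were higher at an adjusted p under 0.05 (edgeR quasi-likelihood test, Benjamini-Hochberg over all genes tested), and 31 did not pass. That is 44.2% of the members called lower and 15.6% called higher, against 29.2% and 28.9% of all genes tested. The changes were small. No member was called with a change of more than 1 log2 unit, against 18.1% of all genes tested. The median log2 fold change over the members was -0.18, with extremes of -0.87 and 0.57, against -0.00 over all genes tested.

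In C26-TDCA livers, set against the same CT livers, falls again outnumbered rises. There 44 members were lower, 8 were higher and 25 did not pass, where 28.2% of all genes tested were called lower and 28.7% higher. Again no member was called past 1 log2 unit, against 18.3% of all genes tested. The median over the members was -0.25, against 0.01 over all genes tested. Side by side, 34 members were called lower in both comparisons, 8 higher in both, 10 lower in C26-TDCA livers and not called in C26 livers, 4 higher in C26 livers and not called in C26-TDCA livers, and 21 called in neither. Both comparisons use the same CT libraries, so they are not separate evidence.

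**Figure D1:**
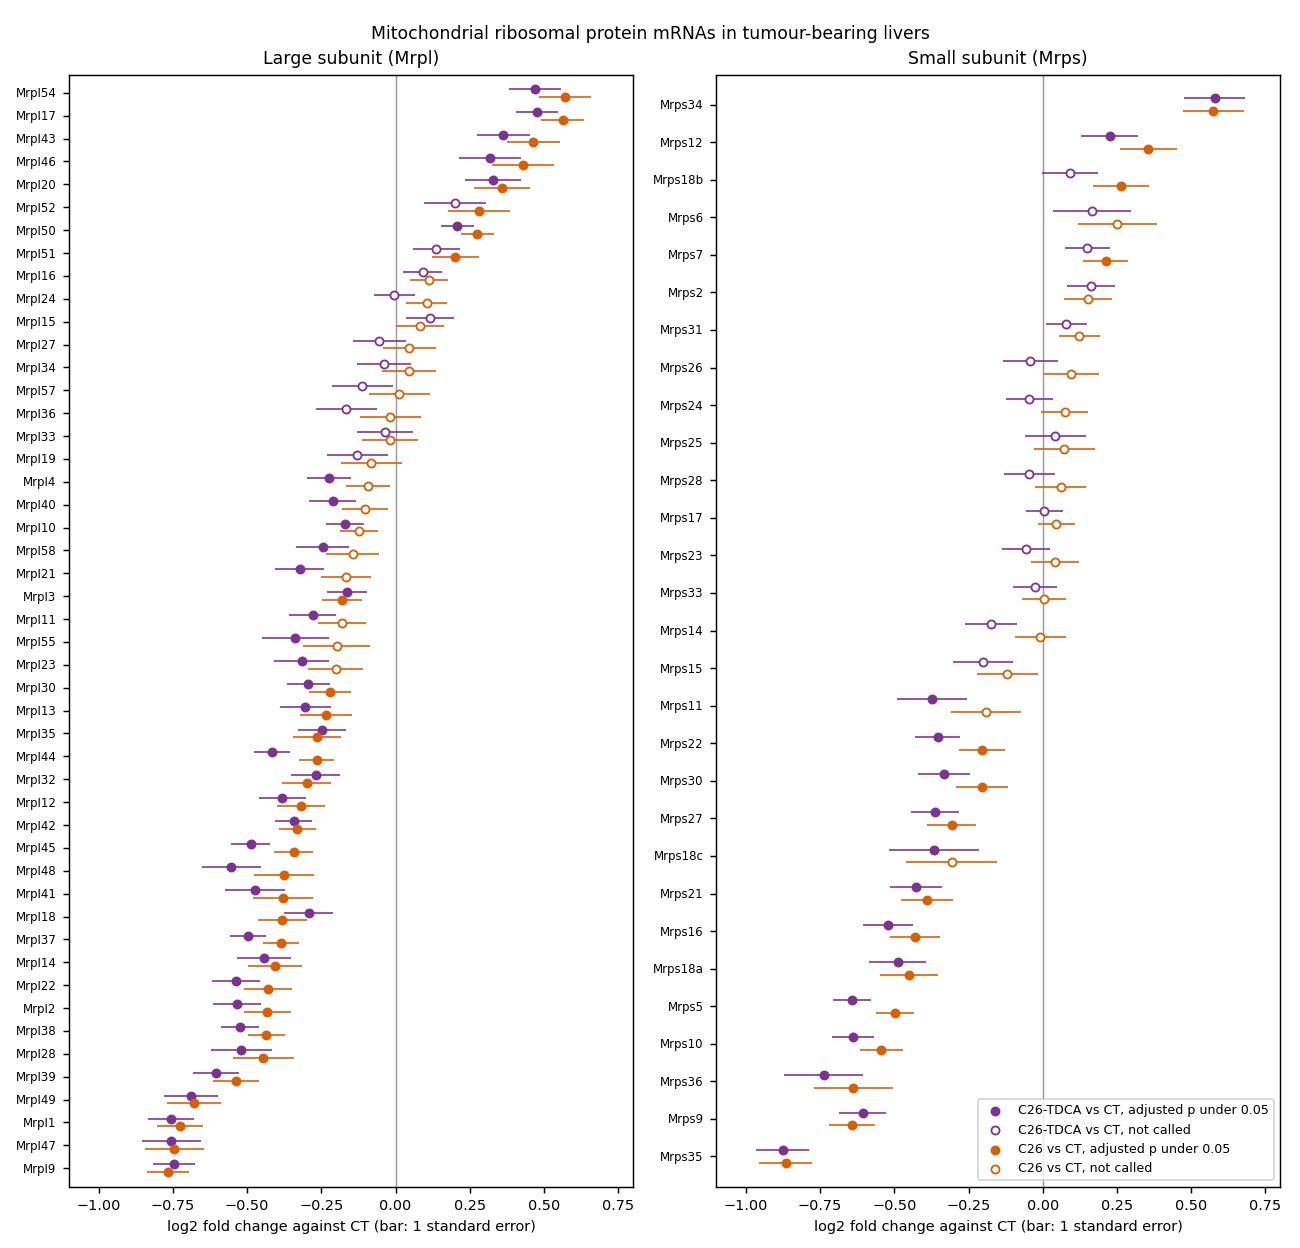
Log2 fold change of each of the 77 members against CT, with C26-TDCA livers in purple and C26 livers in orange, ordered by the C26 value within each subunit. Bars are 1 standard error, filled points passed the adjusted p threshold of 0.05, and all points lie between -0.88 and 0.58.

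By subunit, 23 of the 48 large subunit members were lower in C26 livers and 8 higher, with a median log2 fold change of -0.19. Of the 29 small subunit members, 11 were lower and 4 higher, with a median of -0.01. In C26-TDCA livers, 31 large subunit members were lower and 6 higher (median -0.27), and 13 small subunit members were lower and 2 higher (median -0.17). The sign of the small subunit median in C26 livers was not stable, as it was 0.06 with upper-quartile scaling. It was also 0.02 when members were placed by the solved structure of the mammalian ribosome, in which the proteins of Mrps18a and Mrps30 sit in the large subunit and that of Mrps36 is absent. In that grouping the large subunit median in C26 livers was -0.20. No test of the difference between the subunits was made.

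Added up, the large subunit members gave 943, 980 and 1130 CPM (lowest, median and highest library) in C26-TDCA livers, 953, 1014 and 1198 CPM in C26 livers and 1067, 1130 and 1204 CPM in CT livers. The small subunit members gave 465, 484 and 565 CPM in C26-TDCA livers, 494, 509 and 596 CPM in C26 livers and 521, 555 and 605 CPM in CT livers. Both sums were lower at the median in the tumour-bearing groups, and both overlapped with CT. The highest library was replicate 7 among C26-TDCA livers and replicate 6 among C26 livers, for either subunit. Without these 2 libraries, 47 members were lower and 7 higher in C26-TDCA livers, and 39 were lower and 10 higher in C26 livers. The ratio of the large to the small subunit sum lay between 1.956 and 2.05 in C26-TDCA livers, between 1.93 and 2.03 in C26 livers and between 1.99 and 2.09 in CT livers, so the proportion of the 2 subunits overlapped between all 3 groups.

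**Figure D2:**
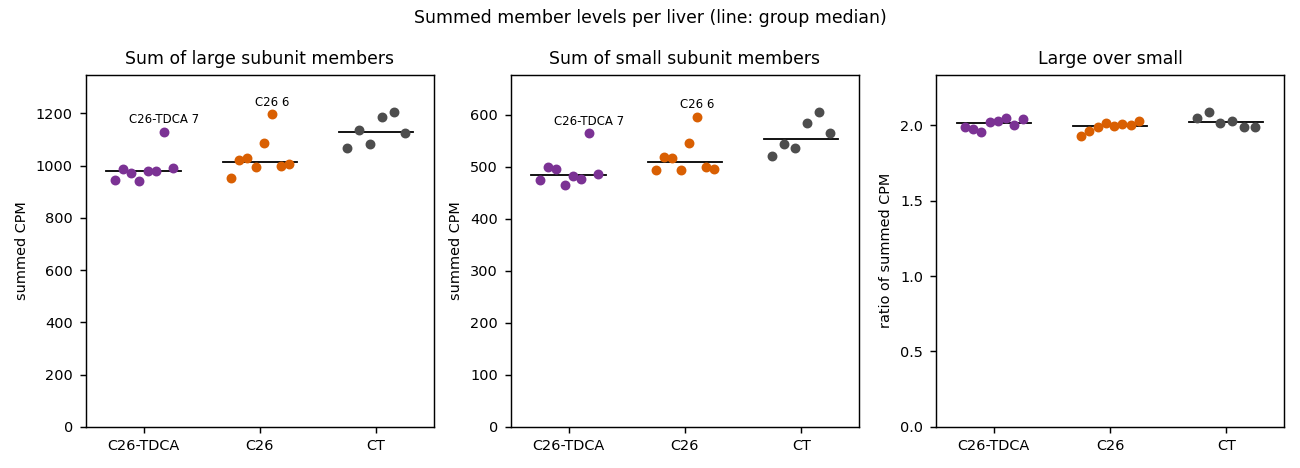
Summed TMM-normalised CPM of the large and the small subunit members in each liver, and their ratio, for C26-TDCA, C26 and CT livers from left to right; the line is the group median. The sums have medians of 980 and 484 CPM in C26-TDCA livers and 1014 and 509 CPM in C26 livers, against 1130 and 555 CPM in CT livers, while the ratio stays close to 2.0.

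The lowest fold change of the whole family belonged to Mrps35, which encodes a mitochondria-specific protein of the small subunit. Its lowest, median and highest levels were 11.9, 13.6 and 16.7 CPM in C26-TDCA livers, 12.0, 13.7 and 17.1 CPM in C26 livers and 23.0, 25.04 and 31.4 CPM in CT livers. No tumour-bearing liver reached the lowest CT liver. The log2 fold change was -0.88 ± 0.09 in C26-TDCA livers (SE, adjusted p = 9.65e-09) and -0.87 ± 0.09 in C26 livers (adjusted p = 1.22e-08).

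Of the large subunit, Mrpl9, a counterpart of bacterial protein L9, had the lowest fold change. It gave 17.5, 19.7 and 23.2 CPM in C26-TDCA livers, 17.4, 19.2 and 22.04 CPM in C26 livers and 30.4, 32.6 and 37.4 CPM in CT livers, again without overlap between tumour-bearing and CT livers. Its log2 fold change was -0.75 ± 0.07 in C26-TDCA livers (adjusted p = 2.61e-09) and -0.77 ± 0.07 in C26 livers (adjusted p = 1.63e-09).

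Mrpl1, a counterpart of the bacterial protein that forms the L1 stalk beside the exit of spent tRNA, gave 13.1, 14.5 and 15.53 CPM in C26-TDCA livers, 11.3, 15.4 and 16.8 CPM in C26 livers and 22.6, 24.3 and 27.5 CPM in CT livers. The groups with tumour lay wholly below CT, with log2 fold changes of -0.76 ± 0.08 in C26-TDCA livers and -0.73 ± 0.08 in C26 livers. Mrpl49, a mitochondria-specific protein, gave 13.3, 17.0 and 21.5 CPM in C26-TDCA livers, 15.1, 16.9 and 20.2 CPM in C26 livers and 25.2, 28.6 and 29.03 CPM in CT livers. It fell by 0.69 ± 0.09 log2 units in C26-TDCA livers and by 0.68 ± 0.09 in C26 livers, and no library overlapped CT. Mrpl39, also mitochondria-specific, gave 18.8, 22.4 and 26.5 CPM in C26-TDCA livers, 19.97, 22.4 and 27.0 CPM in C26 livers and 31.0, 33.6 and 36.8 CPM in CT livers. Here too the tumour-bearing livers all lay below CT, by 0.61 ± 0.08 log2 units in C26-TDCA livers and 0.54 ± 0.08 in C26 livers.

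At the rim of the tunnel through which the growing peptide leaves, 5 members of the large subunit are placed by textbook knowledge, and this grouping was made with the values known. Of Mrpl22, Mrpl23, Mrpl24, Mrpl45 and Mrpl47, 4 were lower in C26-TDCA livers and 3 in C26 livers, and none was higher. Mrpl47 gave 6.69, 7.77 and 9.41 CPM in C26-TDCA livers, 6.42, 8.24 and 9.52 CPM in C26 livers and 10.6, 13.6 and 16.0 CPM in CT livers. No tumour-bearing liver overlapped a CT liver, and the log2 fold change was -0.76 ± 0.10 in C26-TDCA livers and -0.75 ± 0.10 in C26 livers. Mrpl45, which in mammals ties the ribosome to the inner membrane, had log2 fold changes of -0.49 ± 0.07 and -0.34 ± 0.07 in those groups. Mrpl24 passed neither test, with log2 fold changes of -0.00 ± 0.07 in C26-TDCA livers and 0.11 ± 0.07 in C26 livers. Exons of Mrpl47 share 616 bases with the respiratory chain gene Ndufb5 on the opposite strand, and Ndufb5 was itself lower in C26 livers, with a log2 fold change of -0.80.

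At the flexible stalk that recruits translation factors, Mrpl10, Mrpl11, Mrpl12 and Mrpl54 were grouped by textbook knowledge, with the values known. Of these 4, 3 were lower and 1 higher in C26-TDCA livers, and 1 was lower, 1 higher and 2 not called in C26 livers. Mrpl12, whose protein forms the stalk and has also been reported to bind the mitochondrial RNA polymerase, gave 30.5, 37.2 and 45.3 CPM in C26-TDCA livers, 33.4, 38.4 and 44.3 CPM in C26 livers and 42.7, 48.5 and 53.8 CPM in CT livers. It was lower by 0.38 ± 0.08 log2 units in C26-TDCA livers (adjusted p = 0.00026) and by 0.32 ± 0.08 in C26 livers (adjusted p = 0.0016), although the highest tumour-bearing livers overlapped with CT. Mrpl10, the anchor of the stalk, was called in C26-TDCA livers, where its log2 fold change was -0.17 ± 0.06 (adjusted p = 0.026), and was not called in C26 livers, at -0.12 ± 0.06 (adjusted p = 0.10). In the direct comparison of C26-TDCA with C26 livers, Mrpl10 differed by -0.05 log2 units (edgeR unadjusted p = 0.43). The call of Mrpl10 in C26-TDCA livers was lost under upper-quartile scaling, on removing the length and GC trend, in the libraries of the replicate block with or without the block, and without C26-TDCA replicate 2 or 4 or CT replicate 6 or 7, with adjusted p from 0.014 to 0.16 over the alternatives. Mrpl11, a counterpart of the bacterial protein at the base of the stalk, was lower in C26-TDCA livers (-0.28 ± 0.08, adjusted p = 0.0044) and was not called in C26 livers (-0.18 ± 0.08, adjusted p = 0.056).

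Mrpl54, also placed at the stalk, was among the highest changes of the family. Its levels were 17.0, 18.5 and 22.9 CPM in C26-TDCA livers, 17.7, 19.5 and 26.9 CPM in C26 livers and 12.1, 13.9 and 14.7 CPM in CT livers. Every tumour-bearing liver was above every CT liver, and the log2 fold change was 0.47 ± 0.09 in C26-TDCA livers (adjusted p = 6.82e-05) and 0.57 ± 0.09 in C26 livers (adjusted p = 5.52e-06).

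In the central protuberance, which lies above the tRNA sites of the large subunit, 7 members were also grouped by textbook knowledge with the values known. Of these, 5 were lower and 1 higher in C26-TDCA livers, and 3 were lower and 1 higher in C26 livers. The shares over all genes tested were 28.2% lower and 28.7% higher in C26-TDCA livers and 29.2% and 28.9% in C26 livers. Neither this group nor those of the tunnel and the stalk were tested as sets. Mrpl38 had one of the highest levels of the family per kilobase of the longest annotated transcript in CT livers. It gave 32.4, 36.5 and 40.2 CPM in C26-TDCA livers and 34.5, 38.0 and 44.9 CPM in C26 livers. In CT livers Mrpl38 gave 49.2, 52.4 and 56.1 CPM. It lay below CT in every tumour-bearing liver, with log2 fold changes of -0.52 ± 0.06 in C26-TDCA livers and -0.43 ± 0.06 in C26 livers. Mrpl46 was the member that rose. It gave 14.4, 17.3 and 21.5 CPM in C26-TDCA livers, 17.1, 18.4 and 25.1 CPM in C26 livers and 11.2, 13.7 and 17.6 CPM in CT livers, with overlap, and its log2 fold change was 0.32 ± 0.10 in C26-TDCA livers and 0.43 ± 0.10 in C26 livers. Mrpl46 lies head to head with Mrps11, with which it shares 173 exon bases on opposite strands. Mrps11 was lower in C26-TDCA livers (-0.37 ± 0.12, adjusted p = 0.0090) and was not called in C26 livers (-0.19 ± 0.12, adjusted p = 0.17). Its call was lost in the libraries of the replicate block, with or without the block (largest adjusted p 0.065). Mrpl58, which in mammals has kept the activity that frees peptides from stalled ribosomes, was called lower in C26-TDCA livers (-0.25 ± 0.09, adjusted p = 0.020) and not in C26 livers (-0.14 ± 0.09, adjusted p = 0.17). That call was lost with upper-quartile scaling, in the libraries of the block without it, and without CT replicate 6 or 7, with adjusted p from 0.0071 to 0.068 over the alternatives.

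Among the other large subunit members that rose was Mrpl17, a counterpart of bacterial L17. It gave 36.2, 38.1 and 42.9 CPM in C26-TDCA livers, 34.2, 41.5 and 47.98 CPM in C26 livers and 25.5, 27.9 and 30.8 CPM in CT livers. No tumour-bearing liver overlapped a CT liver, and the log2 fold change was 0.48 ± 0.07 in C26-TDCA livers (adjusted p = 3.56e-06) and 0.56 ± 0.07 in C26 livers (adjusted p = 3.22e-07). Mrpl20, whose bacterial counterpart binds early in assembly, rose by 0.33 ± 0.09 log2 units in C26-TDCA livers and 0.36 ± 0.09 in C26 livers. Mrpl43, a mitochondria-specific protein, gave 26.1, 34.0 and 37.7 CPM in C26-TDCA livers, 30.0, 34.5 and 41.6 CPM in C26 livers and 22.9, 24.6 and 29.2 CPM in CT livers. Its C26 livers were all above CT, its C26-TDCA livers overlapped, and the log2 fold changes were 0.36 ± 0.09 and 0.46 ± 0.09 in C26-TDCA and C26 livers. Of its exon bases, 33.4% are shared with Twnk, the gene of the mitochondrial DNA helicase, on the opposite strand, and Twnk was also higher in C26 livers, with a log2 fold change of 0.26.

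**Figure D3:**
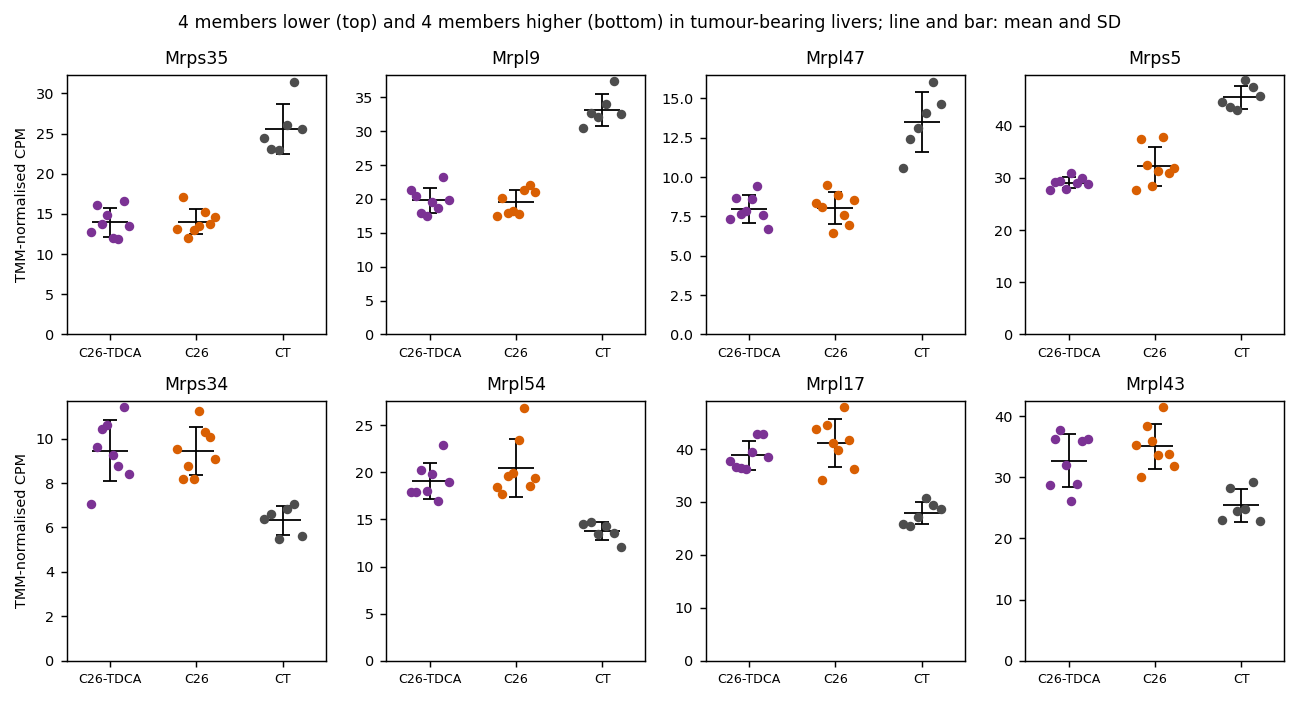
TMM-normalised CPM in each liver of 4 members that were lower (Mrps35, Mrpl9, Mrpl47, Mrps5) and 4 that were higher (Mrps34, Mrpl54, Mrpl17, Mrpl43) in both tumour-bearing groups, with C26-TDCA, C26 and CT livers from left to right; the line and bar are the mean and SD. In 7 of the 8 genes no tumour-bearing liver overlapped a CT liver; the exception is Mrpl43 in C26-TDCA livers.

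In the small subunit, Mrps5, a counterpart of the bacterial protein S5 that bears on the accuracy of translation, gave 27.7, 29.1 and 30.9 CPM in C26-TDCA livers, 27.7, 31.5 and 37.8 CPM in C26 livers and 42.9, 45.1 and 48.8 CPM in CT livers. The log2 fold change was -0.64 ± 0.06 in C26-TDCA livers and -0.50 ± 0.06 in C26 livers, with no overlap between tumour-bearing and CT livers. Mrps9 and Mrps10, both with bacterial counterparts in the head of the subunit, also lay below CT in every tumour-bearing liver. Mrps9 gave 11.8, 13.9 and 15.9 CPM in C26-TDCA livers, 11.6, 12.8 and 16.1 CPM in C26 livers and 19.2, 21.01 and 22.8 CPM in CT livers, with log2 fold changes of -0.61 ± 0.08 in C26-TDCA livers and -0.64 ± 0.08 in C26 livers. Mrps10 had log2 fold changes of -0.64 ± 0.07 in C26-TDCA livers and -0.54 ± 0.07 in C26 livers. Mrps36, whose protein was later assigned to the oxoglutarate dehydrogenase complex rather than to the ribosome, gave 3.49, 5.01 and 5.30 CPM in C26-TDCA livers, 3.39, 4.84 and 6.27 CPM in C26 livers and 6.48, 7.99 and 8.40 CPM in CT livers. It fell by 0.74 ± 0.13 log2 units in C26-TDCA livers and by 0.64 ± 0.13 in C26 livers.

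The highest fold change of the small subunit was that of Mrps34, whose loss in mouse and human destabilises the subunit. Its levels were 7.06, 9.46 and 11.4 CPM in C26-TDCA livers, 8.17, 9.31 and 11.2 CPM in C26 livers and 5.46, 6.499 and 7.04 CPM in CT livers. All tumour-bearing livers lay above all CT livers, the closest C26-TDCA and CT livers being 7.06 and 7.04 CPM. The log2 fold change was 0.58 ± 0.10 in C26-TDCA livers (adjusted p = 3.55e-05) and 0.57 ± 0.10 in C26 livers (adjusted p = 3.97e-05). However, 63.4% of the exon bases of Mrps34 are shared with Mapk8ip3 on the opposite strand, and Mapk8ip3 was higher in C26 livers by 0.49 log2 units. The strand setting of the counting is not given in the sources used here, so reads of the 2 genes may not have been told apart. Nme3, a gene on the same strand that is absent from the count table, also shares 763 exon bases with Mrps34 in the annotation.

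Mrps12, at the decoding centre, gave 13.6, 15.4 and 21.1 CPM in C26-TDCA livers, 13.1, 18.1 and 21.5 CPM in C26 livers and 12.5, 14.0 and 14.8 CPM in CT livers. The groups overlapped, and the log2 fold change was 0.23 ± 0.10 in C26-TDCA livers (adjusted p = 0.047) and 0.36 ± 0.10 in C26 livers (adjusted p = 0.0026), without a called difference between those groups. The call in C26-TDCA livers was lost under 16 of 32 alternatives, with adjusted p from 0.0024 to 0.11. These were the libraries of the replicate block with or without the block, leaving out C26-TDCA replicate 1, 5 or 7, C26 replicate 3, 4, 5, 7 or 8 or CT replicate 2, 5, 6, 7 or 8, and leaving out C26-TDCA replicate 7 and C26 replicate 6 together. Mrps7, a counterpart of bacterial S7, was higher in C26 livers (0.21 ± 0.08, adjusted p = 0.020), while its value in C26-TDCA livers was 0.15 ± 0.08 (adjusted p = 0.096). The call of Mrps7 was lost with the length and GC trend removed and without CT replicate 1 or 5, with adjusted p from 0.0033 to 0.12 over the alternatives. Mrps7 also shares 119 exon bases with Mif4gd, which was higher in C26 livers with a log2 fold change of 1.21. It shares 127 with Gga3, which was not called there, at 0.01. Mrps6, named among the highest in its subunit, was not called, at 0.17 ± 0.13 in C26-TDCA livers and 0.25 ± 0.13 in C26 livers.

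Mammals carry 3 genes related to bacterial S18, and the differences between them were not tested. Mrps18a, whose protein sits in the large subunit, was lower by 0.49 ± 0.10 log2 units in C26-TDCA livers and by 0.45 ± 0.10 in C26 livers. Mrps18b was higher in C26 livers (0.26 ± 0.09, adjusted p = 0.020) and was not called in C26-TDCA livers (0.09 ± 0.09, adjusted p = 0.42). Mrps18c was lower in C26-TDCA livers (-0.37 ± 0.15, adjusted p = 0.044) and was not called in C26 livers (-0.31 ± 0.15, adjusted p = 0.089). The call of Mrps18b was lost under the replicate block and without CT replicate 5 (largest adjusted p 0.064). That of Mrps18c was lost under 16 of 32 alternatives, with adjusted p from 0.0034 to 0.23. These were removing the length and GC trend, upper-quartile scaling, the libraries of the replicate block with or without the block, leaving out any of C26-TDCA replicates 1 to 6 or CT replicate 2, 5, 6, 7 or 8, and leaving out C26-TDCA replicate 8 and C26 replicate 1 together. Mrps30, the other small subunit symbol whose protein sits in the large subunit, was lower in both, by 0.33 ± 0.09 and 0.21 ± 0.09 log2 units in C26-TDCA and C26 livers. Its call in C26 livers was lost under 18 of 32 alternatives, with adjusted p from 0.024 to 0.48. Among these were both DESeq2 alternatives, upper-quartile scaling, removing the length and GC trend, the replicate block, the fit of the compared groups alone, and leaving out C26-TDCA replicate 2, 3, 4 or 6, C26 replicate 1, 7 or 8 or CT replicate 2, 6, 7 or 8.

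Members of either evolutionary origin fell and rose, in a grouping by textbook knowledge that was also made with the values known. Of the 46 with a bacterial counterpart, 27 were lower and 3 higher in C26-TDCA livers, and 19 were lower and 4 higher in C26 livers. Of the 30 found in mitochondria alone, 16 were lower and 5 higher in C26-TDCA livers, and 14 were lower and 8 higher in C26 livers. Over all genes tested, 28.2% were lower and 28.7% higher in C26-TDCA livers, and 29.2% and 28.9% in C26 livers. The medians in C26 livers were -0.18 and -0.12 for the 2 origins. Over the 77 members, the log2 fold change in C26 livers had a Spearman rho of -0.10 with transcript length, 0.12 with GC content and -0.15 with the CPM in CT livers, given as a description because the members share libraries.

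Some members did not overlap with CT at all. In C26-TDCA livers, 22 members (28.6%) lay below CT in every library and 3 (3.9%) above it, where 16.2% of all genes tested lay wholly below and 15.4% wholly above. In C26 livers, 18 members (23.4%) lay below CT in every library and 5 (6.49%) above it, where 15.3% of all genes tested lay wholly below and 14.2% wholly above. Adding both directions, the share without overlap was near that of all genes tested. In C26-TDCA livers the 22 were made up of 14 large and 8 small subunit members, and in C26 livers the 18 were made up of 13 large and 5 small subunit members.

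The 4 promoters below are those of the called members with the lowest and the highest log2 fold change in C26 livers within each subunit, among the members with 1 promoter in the RefSeq table of GRCm38.p6. They are shown because the family holds members that move in opposite directions. Each runs 5′ to 3′ in the direction of the gene, from 250 bases before the annotated start to 50 after it. Mrpl9 lies at chr3:94443086-94443385 on the plus strand and Mrps9 at chr1:42850983-42851282 on the plus strand, and both were lower. Mrpl17 lies at chr7:105811038-105811337 on the minus strand and Mrps12 at chr7:28741772-28742071 on the minus strand, and both were higher. Capitals mark matches to the NRF1 core GCGCANGC or the ETS core CCGGAAG, on either strand.
Mrpl9: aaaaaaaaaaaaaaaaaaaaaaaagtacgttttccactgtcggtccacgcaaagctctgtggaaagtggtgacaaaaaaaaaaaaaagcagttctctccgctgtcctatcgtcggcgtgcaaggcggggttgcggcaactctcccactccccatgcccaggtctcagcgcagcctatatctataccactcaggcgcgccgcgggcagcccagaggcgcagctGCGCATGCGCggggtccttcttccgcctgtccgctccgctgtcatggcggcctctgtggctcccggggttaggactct
Mrps9: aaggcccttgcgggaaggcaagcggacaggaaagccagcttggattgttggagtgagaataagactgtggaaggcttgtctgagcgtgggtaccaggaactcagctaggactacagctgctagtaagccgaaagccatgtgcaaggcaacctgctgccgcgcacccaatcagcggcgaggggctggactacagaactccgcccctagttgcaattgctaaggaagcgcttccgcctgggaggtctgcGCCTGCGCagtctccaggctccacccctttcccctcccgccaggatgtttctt
Mrpl17: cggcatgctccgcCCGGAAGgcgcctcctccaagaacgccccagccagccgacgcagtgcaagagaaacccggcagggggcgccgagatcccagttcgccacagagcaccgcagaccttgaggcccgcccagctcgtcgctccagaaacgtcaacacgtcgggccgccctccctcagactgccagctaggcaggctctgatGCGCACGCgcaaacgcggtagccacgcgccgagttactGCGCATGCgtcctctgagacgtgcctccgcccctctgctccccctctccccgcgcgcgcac
Mrps12: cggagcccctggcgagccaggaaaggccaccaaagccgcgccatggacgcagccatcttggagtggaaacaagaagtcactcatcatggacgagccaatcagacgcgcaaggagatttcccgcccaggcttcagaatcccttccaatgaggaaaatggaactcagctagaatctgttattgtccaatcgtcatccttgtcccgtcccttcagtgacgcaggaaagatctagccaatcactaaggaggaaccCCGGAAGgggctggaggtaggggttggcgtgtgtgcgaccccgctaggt

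Both factors are known regulators of nuclear genes for mitochondrial proteins. In these windows, Mrpl9 had 2 overlapping NRF1 matches on one stretch, Mrps9 had 1 NRF1 match, Mrpl17 had 2 NRF1 matches and 1 ETS match, and Mrps12 had 1 ETS match. Over the 68 members with a promoter in the table, 32.4% held the NRF1 core, against 21.1% of the promoters of all genes tested and 11.2% of all promoters. The ETS core stood in 36.8% of the members' promoters, against 18.9% and 9.93%. The YY1 core AAGATGGCG stood in 11.8%, against 3.36% and 1.64%. The E-box CACGTG stood in 7.35%, against 11.4% and 8.09%, and the TATA box TATAAA in 7.35%, against 9.55% and 15.7%. In C26 livers, 9 of the 25 members with an ETS match were lower and 6 higher, and 22 of the 43 without one were lower and 4 higher. Of the 22 with an NRF1 match, 13 were lower and 3 higher, and of the 46 without one 18 were lower and 7 higher. Of the 8 with a YY1 match, 5 were lower and 0 higher, and of the 60 without one 26 were lower and 10 higher. These differences were not tested. A match is a run of letters and does not show binding.

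The members varied in level as well. Per kilobase of the longest annotated transcript, the highest in CT livers were Mrpl14 at 39.3 CPM per kb, Mrps21 at 38.6 and Mrpl38 at 37.1. The lowest were Mrps25 at 1.09 CPM per kb, Mrpl19 at 2.26 and Mrps6 at 2.93. The order depends on the length used: the highest stood 36.0-fold above the lowest with the longest transcript and 10.9-fold with the coding length. Mrpl14 and Mrps21 were lower in both tumour-bearing groups, with log2 fold changes of -0.44 ± 0.09 and -0.43 ± 0.09 in C26-TDCA livers and -0.41 ± 0.09 and -0.39 ± 0.09 in C26 livers. Mrps25 and Mrpl19 were called in neither. Mrps25 shares 69.8% of its exon bases with Nr2c2 on the opposite strand, and Nr2c2 was lower in C26 livers, with a log2 fold change of -0.87. Mrpl19 shares 36.0% with Gcfc2, which was higher in C26 livers, with a log2 fold change of 0.96.

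**Figure D4:**
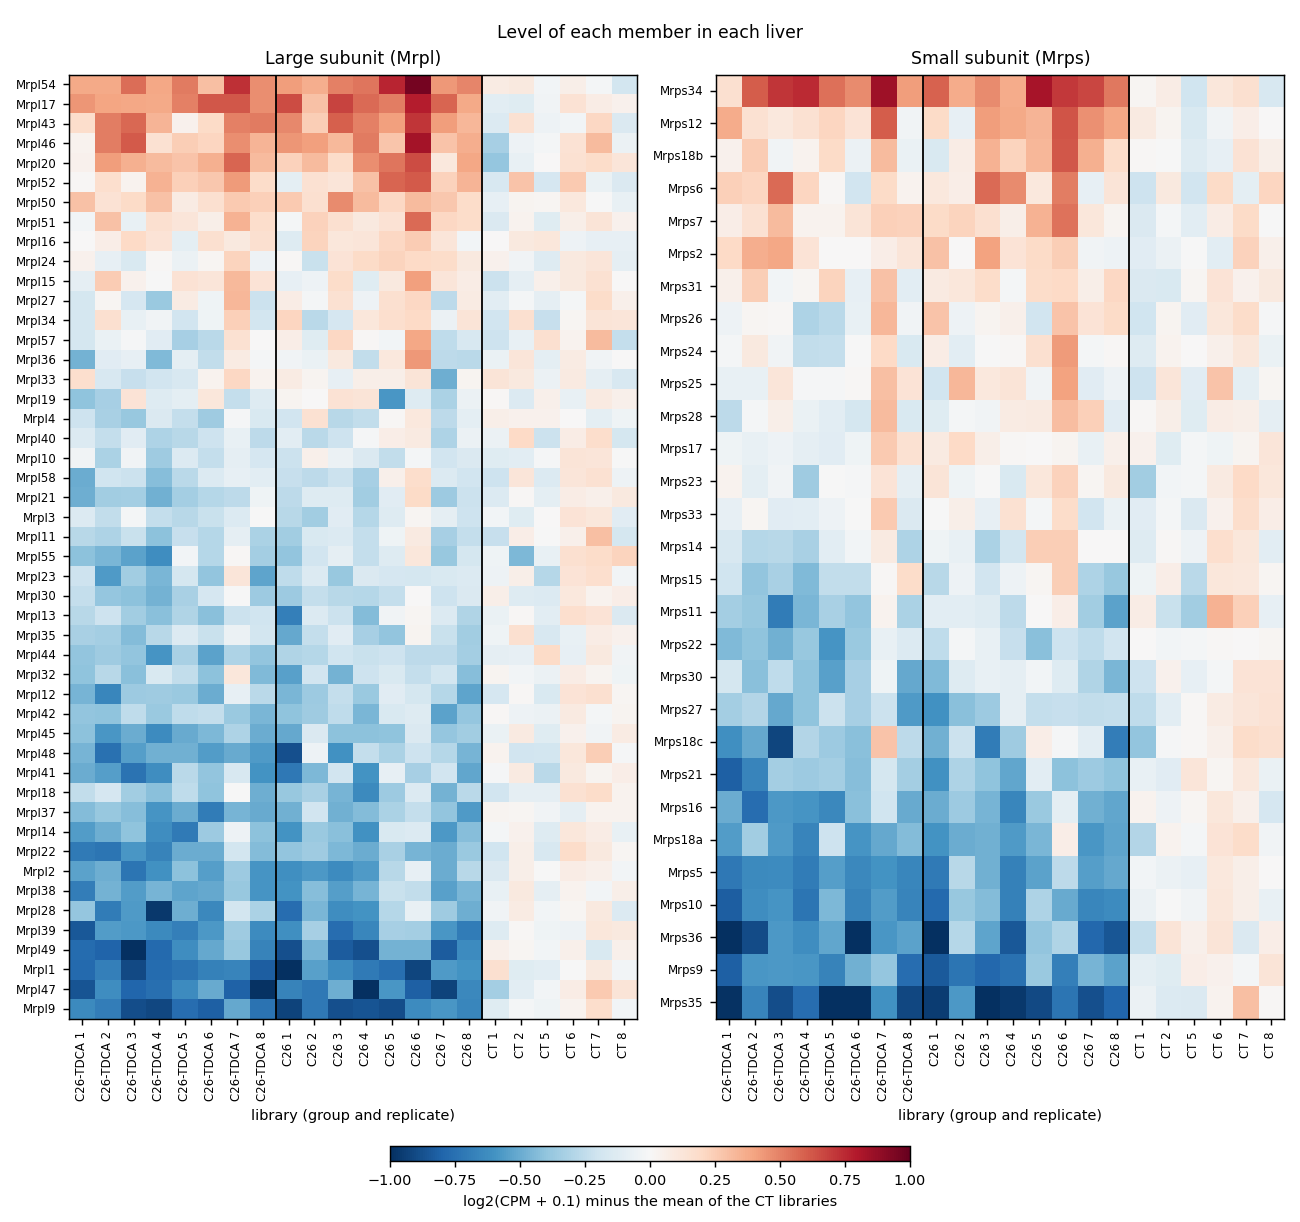
Each member (row, ordered by its log2 fold change in C26 livers) in each liver (column; C26-TDCA, C26 and CT from left to right) as log2(CPM + 0.1) minus the mean of the CT libraries, so that red is higher and blue lower than CT. Rows such as Mrpl9 and Mrps35 are blue and rows such as Mrpl54 and Mrps34 are red in all 16 tumour-bearing livers, and the columns of C26-TDCA replicate 7 and C26 replicate 6 are redder than their neighbours over most rows.

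TDCA in tumour-bearing mice changed no member at the threshold. In C26-TDCA against C26 livers, 0 of 77 members were called lower and 0 higher, where 0.237% of all genes tested were called lower and 1.73% higher, and the DESeq2 test also called 0. At an unadjusted p under 0.05 in edgeR, 2335 of the 14785 genes tested passed, 928 of them with lower values in C26-TDCA livers. Of the 77 members 4 passed, all of them with lower values in C26-TDCA livers. They were Mrpl44, Mrps5, Mrpl45 and Mrps22, with log2 fold changes of -0.15, -0.15, -0.14 and -0.15 and a smallest adjusted p of 0.17 over the family. The values were tilted to one side all the same. The log2 fold change was negative in 68 of the 77 members, where 7865 of the 14785 genes tested were negative. All members were measured in the same libraries, so their signs are not separate evidence. The values ran from -0.18 to 0.09, with a median of -0.08, against -0.01 over all genes tested. The medians were -0.08 in the large and -0.09 in the small subunit, and with a trend on transcript length and GC removed they were -0.04 and -0.07. Without C26 replicate 6 the large and small subunit medians were -0.05 and -0.04, and without C26-TDCA replicate 7 both were -0.11. In the same comparison the nuclear subunits of oxidative phosphorylation had a median of -0.06, with 67 of 78 negative. The cytosolic ribosomal proteins had one of -0.09, with 76 of 78 negative. Other groups tilted up. The 13 mRNAs of mitochondrial DNA had a median of 0.10, with 11 positive, 2 negative and 1 called higher. The 21 genes of mitochondrial transcription and its regulators had a median of 0.03, with 13 positive and 8 negative.

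The family's medians lay between those of 2 related groups of genes. Of 78 nuclear-encoded subunits of oxidative phosphorylation, 74 were lower and 0 higher in C26-TDCA livers, and 73 were lower and 1 higher in C26 livers, with medians of -0.72 and -0.68. Of 78 cytosolic ribosomal proteins, 2 were lower and 38 higher in C26-TDCA livers, and 2 were lower and 58 higher in C26 livers, with medians of 0.18 and 0.28. The mitochondrial ribosomal proteins, with medians of -0.25 and -0.18, lay between them. Of the 13 mRNAs of mitochondrial DNA, which this ribosome translates, 8 were lower in C26-TDCA livers and 12 in C26 livers, with medians of -0.41 and -0.49. PolyA selection captures these mRNAs unevenly, so their levels are not compared between genes here.

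**Figure D5:**
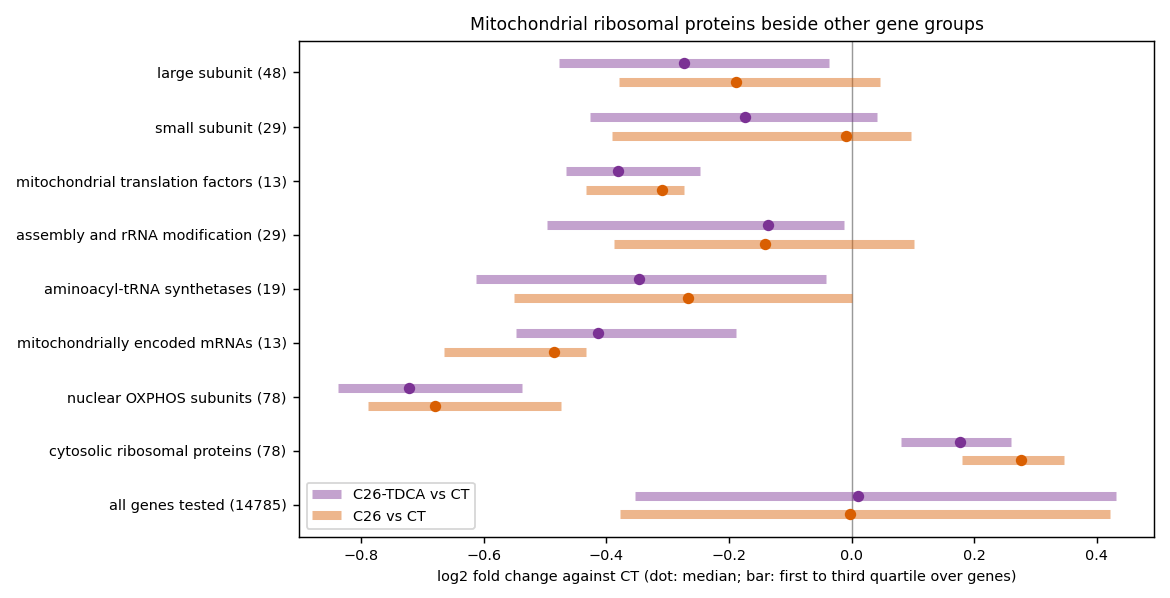
Median (dot) and interquartile range (bar) of the log2 fold change against CT over the genes of each group, with C26-TDCA livers above C26 livers. The subunits of the mitochondrial ribosome have medians from -0.27 to -0.01, between nuclear OXPHOS (oxidative phosphorylation) subunits at -0.72 and -0.68 and cytosolic ribosomal proteins at 0.18 and 0.28.

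In C26 livers, each list of genes that serve the same ribosome or its organelle held more genes called lower than higher. Over all genes tested, 29.2% were called lower there and 28.9% higher. The same order held in each list in C26-TDCA livers, where 28.2% of all genes tested were called lower and 28.7% higher. The lists were not tested as sets. List counts in this and the next paragraph are for C26 livers. Of 5 further subunits whose symbols do not begin with Mrp, 2 were lower and 1 higher in C26 livers. Ptcd3, a pentatricopeptide protein of the small subunit, averaged 23.0 ± 1.8 CPM in C26 livers and 36.8 ± 2.2 CPM in CT livers (SD), and Gadd45gip1, of the large subunit, averaged 5.88 ± 0.78 CPM in C26 livers and 4.71 ± 0.92 CPM in CT livers. Of 13 tested translation factors, 10 were lower and 1 higher in C26 livers, with a median log2 fold change of -0.31. Among them Gfm1, the elongation factor that moves the ribosome along, fell by 0.43 ± 0.05 log2 units, and the initiation factor Mtif3 fell by 0.66 ± 0.09. Of 19 aminoacyl-tRNA synthetases and related enzymes, which charge the tRNAs, 10 were lower and 2 higher, and Nars2, which charges asparagine tRNA, averaged 9.94 ± 1.86 CPM in C26 livers and 20.3 ± 2.2 CPM in CT livers.

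Of 29 genes for assembly of the ribosome and modification of its RNA, 10 were lower and 1 higher. The exception was Ddx28, an RNA helicase of large subunit assembly, which averaged 71.8 ± 18.9 CPM in C26 livers and 11.3 ± 1.4 CPM in CT livers (SD, n = 8 and 6), a log2 fold change of 2.67 ± 0.16 (edgeR adjusted p = 1.15e-12). Noa1, a GTPase of small subunit assembly, fell by 0.89 ± 0.12 log2 units. Of 21 genes of mitochondrial transcription and its regulators, 10 were lower and 4 higher. The coactivator Ppargc1b averaged 2.26 ± 0.63 CPM in C26 livers and 10.4 ± 3.1 CPM in CT livers, and the nuclear receptor Esrra averaged 12.9 ± 2.0 CPM in C26 livers and 32.5 ± 2.9 CPM in CT livers. Of 23 genes of protein import, 13 were lower and 0 higher, among them Timm44, a part of the import motor, by 0.69 ± 0.06 log2 units. Of 12 chaperones and proteases, 8 were lower and 1 higher, among them Lonp1, a matrix protease, by 0.58 ± 0.07 log2 units.

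Whole liver holds several cell types, and in bulk RNA fewer cells of a type and less RNA per cell cannot be told apart. The summed level of 7 hepatocyte markers was 26605 to 34146 CPM in C26-TDCA livers, 25876 to 34620 CPM in C26 livers and 56244 to 64010 CPM in CT livers. Of these 7, 2 were lower and 3 higher in C26-TDCA livers, and 2 were lower and 2 higher in C26 livers. Their median log2 fold changes were -0.13 in C26-TDCA livers and -0.04 in C26 livers. Single markers ran from -1.98 to 1.15 in C26-TDCA livers and from -1.80 to 1.23 in C26 livers. A sum is carried by its most abundant genes, so the lower sum does not stand for all 7. All 10 Kupffer cell markers were higher in both tumour-bearing groups, with sums of 519 to 684 CPM in C26-TDCA livers, 430 to 653 CPM in C26 livers and 251 to 298 CPM in CT livers. Of 9 stellate cell markers, 8 were higher in each group and 1 was lower in C26 livers. Their sums were 457 to 616 CPM in C26-TDCA livers, 352 to 554 CPM in C26 livers and 214 to 292 CPM in CT livers. Of 9 markers of the sinusoidal endothelium, 8 were higher in C26-TDCA livers and 7 in C26 livers, with sums of 517 to 686 CPM in C26-TDCA livers, 360 to 654 CPM in C26 livers and 286 to 358 CPM in CT livers. Sums over the 9 monocyte and neutrophil markers in the count table were 18.1 to 44.6 CPM in C26-TDCA livers. They were 19.6 to 51.0 CPM in C26 livers and 2.41 to 6.57 CPM in CT livers. Of the 8 tested, 7 were higher in each tumour-bearing group. Of 5 tested cholangiocyte markers, 2 were higher and 3 not called in each group. Their sums were 260 to 637 CPM in C26-TDCA livers, 239 to 763 CPM in C26 livers and 19.3 to 32.6 CPM in CT livers. Of the 2 tested T and NK cell markers, 1 was lower in each group. Sums over the 3 in the count table were 0.817 to 2.03 CPM in C26-TDCA livers and 0.886 to 2.03 CPM in C26 livers. They were 2.57 to 4.43 CPM in CT livers, which no tumour-bearing liver reached. These levels were low, as 3 counts stood for 0.10 to 0.18 CPM. Of 6 B and plasma cell markers, 2 were lower in C26-TDCA livers and 1 in C26 livers, with sums of 1.85 to 4.25 CPM in C26-TDCA livers, 2.45 to 5.66 CPM in C26 livers and 3.78 to 6.13 CPM in CT livers. The part of these shifts in the members' changes was not tested.

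Some members are hard to count apart from their neighbours. Of the 77, 24 share exon bases with another gene of the table. Annotated genes absent from the table are not in this count, such as Oaz3, which shares 157 bases with Mrpl9. Not all partners in the table went the same way as the member in C26 livers. Syvn1, which shares 91 bases with Mrpl49, was higher, with a log2 fold change of 0.89. Slc5a3, which shares 159 bases with Mrps6 on the same strand, was lower, with a log2 fold change of -1.42. The processed pseudogene Mrpl48-ps was counted at 1.32 CPM in C26-TDCA livers, 1.76 CPM in C26 livers and 2.03 CPM in CT livers on average, and could share reads with Mrpl48, which was lower in both tumour-bearing groups.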

How the data were processed

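Liver polyA RNA of 22 mice was analysed from a table of raw read counts per Ensembl gene, used as the authors deposited it. The submitters' processing notes name Trimmomatic 0.40, HISAT2 2.2.1 and featureCounts 2.0.3, and the build GRCm38. No source used here gives the annotation release, the strand setting or how multi-gene reads were treated. Symbols, places, lengths and exon overlaps came from GENCODE M21, in which 15438 of 15448 genes matched. The rule matches 78 genes of that annotation, and Mrpl53 was not analysed here.

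Genes were kept by filterByExpr (minimum count 10), scaled by TMM and tested with edgeR 4.0.16 in R 4.3.3 by the quasi-likelihood F test, with the 3 groups in 1 model and Benjamini-Hochberg adjustment over 14785 genes at 0.05. Standard errors are approximate, from dividing each log2 fold change by the root of its F value. The fit was tested on simulated counts. Alternatives were DESeq2 1.42.0, other scalings, no filter, 2 groups per fit, removal of a length and GC trend, a replicate block and leaving out libraries. Replicate numbers pair no mice in the labels. Libraries of a group differed beyond sampling noise in all 71 pairs.

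The members and gene lists were chosen with earlier results of these data known. Named members are the 5 lowest and 5 highest log2 fold changes per subunit in C26 against CT, 9 with a known place or role, the 3 highest and 3 lowest levels per length, and up to 3 called genes per list by p; other members named were chosen after their values were seen.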

Additional observations from a re-analysis of the deposited data

Results flagged for a closer look

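Of 99 checks of a single library against its group (33 items in 3 groups), 7 found a library set apart from the others, and chance alone gives about 1 in 20. In 4 of the 7 the library was C26-TDCA replicate 7. It held the highest summed level of the large subunit in its group, 1130 CPM against 992 CPM in the next library, and of the small subunit, 565 CPM against 499 CPM. It was also highest for Mrpl14, at 24.5 CPM against 19.6 CPM, and for Mrps18c, at 9.34 CPM against 6.35 CPM.

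C26 replicate 6 was highest in its group for Mrpl46, at 25.1 CPM against 20.2 CPM, and for Mrps18a, at 22.5 CPM against 15.6 CPM. These 2 libraries were also the highest of their groups in the summed level of nuclear oxidative phosphorylation subunits (6535 CPM in C26-TDCA replicate 7 and 6459 CPM in C26 replicate 6) and of cytosolic ribosomal proteins (12776 and 14189 CPM). CT replicate 7 was highest for Mrps35, at 31.4 CPM against 26.03 CPM.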

How the results depend on the processing

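The count of small subunit members higher in C26-TDCA livers, 2, became 5 after removing the length and GC trend, 4 under upper-quartile scaling and 1 with the replicate block, in the 18 libraries of the block without it, or without C26-TDCA replicate 7 and C26 replicate 6. That count in C26 livers, 4, became 7 with upper-quartile scaling. Leaving out 1 library gave 1 to 3 small subunit members higher in C26-TDCA livers and 2 to 5 in C26 livers. The replicate block gave 36 members lower and 7 higher in C26-TDCA livers, where the same libraries without it gave 37 and 7; the labels pair no mice, and correlations of same-numbered libraries ran from -0.20 to 0.34. With upper-quartile scaling, 39 members were lower and 10 higher in C26-TDCA livers, and 29 lower and 17 higher in C26 livers. Leaving out 1 library gave 39 to 45 members lower in C26-TDCA livers and 31 to 37 in C26 livers. Under every alternative run, 35 of 44 members lower and 7 of 8 higher in C26-TDCA livers stayed called, and 28 of 34 lower and 8 of 12 higher in C26 livers. The calls lost were those of Mrpl3, Mrpl4, Mrpl10, Mrpl35, Mrpl40, Mrpl55, Mrpl58, Mrps11, Mrps12 and Mrps18c in C26-TDCA livers and of Mrpl3, Mrpl13, Mrpl30, Mrpl35, Mrpl51, Mrpl52, Mrps7, Mrps18b, Mrps22 and Mrps30 in C26 livers. The fold between the highest and the lowest level per length moved to 10.9 with coding length. No called member reversed. The choices to leave out 2 libraries together and to run the block's libraries unblocked were made after seeing the data.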
